A study of Mus musculus with 352 samples.

Results

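The day course of gene expression was described in the tibialis anterior, the mostly fast-fibred muscle on the front of the shin, of wild-type mice aged 10 to 12 weeks. The members were the 23 libraries of a series of 352 whose labels give wild-type genotype, strain C57BL/6, the youngest age and feeding ad libitum. Each library came from 1 mouse, 12 females and 11 males in all. Whole muscle had been snap frozen at 6 zeitgeber times (ZT, hours on a clock that by convention starts at lights on), 4 h apart, with 3 mice at ZT0 and 4 at each of ZT4, ZT8, ZT12, ZT16 and ZT20. The labels list no engineered allele, Cre driver or drug for these animals, and they give neither the light schedule nor the hours of food intake. The comparisons ask which genes peak in each part of the day. One other group, of 22 wild-type mice aged 26 weeks on the same feeding, was used to set the day course beside that of older animals.

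In almost every mammalian cell, BMAL1 (gene symbol Arntl) and CLOCK pair as a transcription factor that binds E-box sequences and switches on the Per and Cry genes, whose proteins then block the pair. A further loop is formed by the REV-ERB repressors (Nr1d1 and Nr1d2) and the ROR activators, which compete for RORE sites in genes such as Arntl and Nfil3. DBP, TEF and the repressor NFIL3 act on D-box sites and carry the time of day to output genes. In skeletal muscle this clock, together with feeding and hormones such as glucocorticoids, is known to time the use of fat and glucose.

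Values are the deposited log2 FPKM (fragments per kilobase of exon, scaled to library depth), so that a step of 1 is a doubling. The depth, estimated from the size of 1 read among the low values, was 17.5 to 47.5 M reads per library. Muscle fibre markers such as Ckm and Acta1 summed to 42500 to 64700 FPKM over their 10 genes. The 13 endothelial and mural markers summed to 143 to 264 FPKM and the 11 measured immune markers to 35.4 to 118 FPKM, and both neutrophil markers in the table were near 0. Pairs of libraries correlated at r of 0.914 to 0.983. Of these libraries 3 stood apart on the first principal component, ZT0 mouse 1 (score -49.6), ZT0 mouse 4 (-26.5) and ZT12 mouse 16 (25.0), while the other 20 lay between -13.6 and 13.9. ZT0 mouse 1 also had the deepest library, with 47.5 M reads, and the highest sum of heat-shock and chaperone genes, 7410 FPKM against 1330 to 2880 FPKM in the other mice.

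A 24 h rhythm, tested as the cosine and sine of a 24 h period with limma, was called in 576 of 9862 genes at an adjusted p under 0.05, which is 5.84% (2218 genes at an unadjusted p under 0.05). The amplitude is the height of the fitted cosine above its mean, in log2 units with its standard error over the 23 mice. The median peak-to-trough fold was 1.56 for the called genes and 1.16 for all genes tested. Of the called genes 337 changed at least 1.5-fold over the day, 137 at least 2-fold and 22 at least 4-fold. Sorted into 4 h windows of the fitted peak, 124 genes peaked around ZT0 (1.26% of the genes tested), 95 around ZT4 (0.963%), 74 around ZT8 (0.75%), 136 around ZT12 (1.38%), 90 around ZT16 (0.913%) and 57 around ZT20 (0.578%). The called genes were thus most numerous around ZT0 and ZT12, and this depended on few mice. Without ZT0 mouse 1 the windows of ZT0 and ZT12 held 82 and 96 genes, and without all 3 libraries that stood apart they held 54 and 67, so that the window of ZT8, with 96, then held the most. The called genes also differed in size by window: the median exon length was 6359 bases around ZT0 and 2974 bases around ZT16, against 4151 bases over all genes tested. The slope of a library's values on log2 exon length ran from -0.0817 to 0.0745 among the mice, and with that slope as a covariate 744 genes were called, 497 of the 576 among them.

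**Figure D1:**
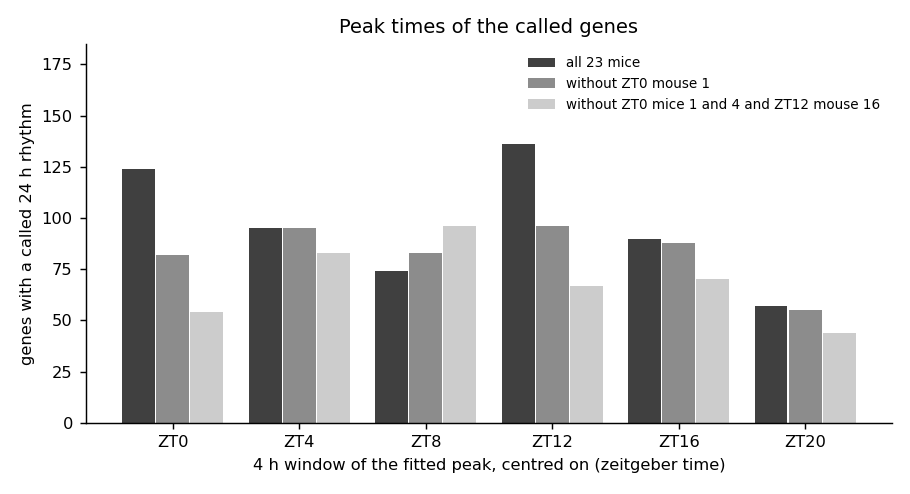
Number of genes with a called 24 h rhythm (y axis) in each 4 h window of the fitted peak (x axis, centred on the zeitgeber time shown), for all 23 mice, without ZT0 mouse 1, and without the 3 libraries that stood apart. The bars of ZT0 and ZT12 fall from 124 and 136 to 54 and 67, while that of ZT8 goes from 74 to 96.

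The clock genes carried the known binding sequences to different degrees, and the promoters that hold one are printed here beside their peak times. The 250 bases before the RefSeq start site (build GRCm38.p6) were searched on both strands for the E-box CACGTG, the D-boxes TTATGTAA and TTACGTAA and the RORE cores TAGGTCA and TGGGTCA, none of which overlaps another in these windows. Capitals mark the match, and each sequence runs 5′ to 3′ on the strand of the gene. Per1 (chr11:69098699-69098948, plus strand), Tef (chr15:81802423-81802672, plus strand), Cry1 (chr10:85185055-85185304, minus strand) and Bhlhe41 (chr6:145865421-145865670, minus strand) hold an E-box 166, 127, 60 and 153 bases before the start. Per1 and Tef each have a further RefSeq start, not printed, of which that of Tef also holds an E-box and that of Per1 does not.
Per1: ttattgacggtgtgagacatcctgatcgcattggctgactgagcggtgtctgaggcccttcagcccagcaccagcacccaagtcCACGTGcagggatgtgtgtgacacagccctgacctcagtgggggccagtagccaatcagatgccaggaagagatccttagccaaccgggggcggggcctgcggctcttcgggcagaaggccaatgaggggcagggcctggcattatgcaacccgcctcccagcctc
Tef: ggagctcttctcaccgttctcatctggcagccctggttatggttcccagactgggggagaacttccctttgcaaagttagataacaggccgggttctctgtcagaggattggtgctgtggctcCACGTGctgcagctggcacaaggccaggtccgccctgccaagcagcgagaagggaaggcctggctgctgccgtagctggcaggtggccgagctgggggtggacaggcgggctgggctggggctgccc
Cry1: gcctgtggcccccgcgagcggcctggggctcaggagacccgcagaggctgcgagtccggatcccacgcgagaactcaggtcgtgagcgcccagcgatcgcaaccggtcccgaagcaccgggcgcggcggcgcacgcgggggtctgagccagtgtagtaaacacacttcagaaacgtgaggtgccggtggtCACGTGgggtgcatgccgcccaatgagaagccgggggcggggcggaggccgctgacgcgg
Bhlhe41: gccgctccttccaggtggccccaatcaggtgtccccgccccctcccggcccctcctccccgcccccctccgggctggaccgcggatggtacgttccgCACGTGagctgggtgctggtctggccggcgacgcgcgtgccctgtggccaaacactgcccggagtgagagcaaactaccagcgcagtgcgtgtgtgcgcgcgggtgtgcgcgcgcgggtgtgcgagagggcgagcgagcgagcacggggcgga

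Per3 (chr4:151044666-151044915, minus strand) holds a pair of D-boxes, 205 and 158 bases before its start, and Nfil3 (chr13:52981040-52981289, minus strand) holds a RORE core, read on the opposite strand, 12 bases before its start.
Per3: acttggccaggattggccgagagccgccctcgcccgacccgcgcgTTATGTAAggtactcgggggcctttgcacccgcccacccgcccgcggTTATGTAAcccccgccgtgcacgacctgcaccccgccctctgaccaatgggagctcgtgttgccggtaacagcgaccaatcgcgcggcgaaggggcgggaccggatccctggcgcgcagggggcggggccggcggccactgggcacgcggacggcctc
Nfil3: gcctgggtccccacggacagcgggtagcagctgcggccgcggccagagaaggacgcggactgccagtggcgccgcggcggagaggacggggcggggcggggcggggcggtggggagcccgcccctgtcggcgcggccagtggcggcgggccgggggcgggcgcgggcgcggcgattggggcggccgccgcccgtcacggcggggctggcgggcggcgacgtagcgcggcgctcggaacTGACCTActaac

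The first of these sets peaked shortly before ZT12 in 3 of its 4 genes, with fitted peaks of 10.6 h for Bhlhe41, 11 h for Tef and 11.9 h for Per1, while Cry1 peaked at 19.1 h. Per3 peaked at 11.2 h and Nfil3 at 19.6 h. Over all genes tested that had a promoter in the table (7425 of 9862), 10.5% held an E-box, 0.66% a D-box and 5.35% a RORE core, and over the called genes these shares were 13.3%, 1.05% and 5.89%. By window the E-box share was 9.35% around ZT0, 8.45% around ZT4, 17.2% around ZT8, 17.4% around ZT12, 9.86% around ZT16 and 19.1% around ZT20, from 47 to 115 genes a window. No match was found in these windows for Dbp, Nr1d1, Arntl, Clock, Nr1d2 and Cry2, which says only that these letters are not there, and Per2 had no entry.

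The clock genes themselves went through the day in order. A 24 h rhythm was called in 14 of the 16 core clock genes tested (2 of 2 activators, 3 of 4 nuclear receptors, 6 of 7 repressors and 3 of 3 D-box factors), and these 14 had a median amplitude of 0.82. Among all genes tested 5.84% were called, and the median amplitude was 0.11. All 14 were also called without the 3 libraries that stood apart, and 12 in every fit that left out 1 mouse. Separation of the times by mouse is common in these data: 38.7% of all genes tested had every mouse of their highest time above every mouse of their lowest time, so a gap between 2 times named below is a description of the values. Npas2, Ciart and Hlf were below the filter, a mean log2 FPKM of 0 over the whole series, and were not tested.

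Among the activators, Arntl (chr7:113207465-113314126, plus strand, GRCm38) was highest at ZT0, with log2 values of 5.14, 3.29 and 4.36 in the 3 mice, and 3.06, 3.15, 3.18 and 3.58 at ZT4. It then read 2.1, 1.74, 1.8 and 1.95 at ZT8, 1.4, 0.96, 1.13 and 0.78 at ZT12, 2.21, 2.9, 2.22 and 2.83 at ZT16 and 4.04, 3.86, 3.62 and 4.29 at ZT20. Every ZT0 and ZT20 mouse was thus above every mouse of ZT8, ZT12 and ZT16, and the ZT12 mice were below all others. The fitted fold from peak to trough was 8.82 (amplitude 1.57 ± 0.11, SE, n = 23; peak 23 h; limma adjusted p = 6.36e-08). Clock, its partner (chr5:76209868-76304792, minus strand), moved with it over a smaller range, from 2.24, 1.94 and 2.12 at ZT0 to 0.89, 0.91, 1.02 and 0.83 at ZT12, with no overlap between these times. Its fitted peak was 0.419 h and its amplitude 0.54 ± 0.06 (limma adjusted p = 2.28e-05).

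The nuclear receptors peaked at different hours. Nr1d1, which encodes REV-ERB alpha (chr11:98767932-98775333, minus strand), read 5.3, 4.13 and 4.73 at ZT0, 5.27, 5.36, 5.75 and 5.14 at ZT4 and 4.5, 4.81, 4.96 and 5.21 at ZT8. It fell to 3.62, 3.82, 3.62 and 3.88 at ZT12, 2.33, 1.83, 3.59 and 2.58 at ZT16 and 3.29, 2.52, 1.41 and 1.68 at ZT20, so that the ZT4 mice and the mice of the last 3 times did not overlap. The fit gave a 9.22-fold change with a peak at 5.23 h (amplitude 1.6 ± 0.16, limma adjusted p = 9.73e-06). Nr1d2, its paralog REV-ERB beta, peaked later, at 10.2 h, with a smaller amplitude of 0.54 ± 0.07 (limma adjusted p = 0.000209). Its values ran from 3.31, 4.42 and 3.6 at ZT0 to 5.02, 4.79, 4.84 and 4.96 at ZT12, with no overlap. Rora, an activator that binds the same sites, was not called (amplitude 0.10 ± 0.06, limma adjusted p = 0.516).

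The repressors of the E-box loop peaked close to ZT12, apart from Cry1. Per2 (chr1:91415982-91459324, minus strand) rose from -1.86, -0.38 and -2.34 at ZT0 through -0.07, 0.36, -0.55 and -0.40 at ZT4 and 0.92, 1.08, 1.19 and 0.88 at ZT8 to 2.13, 2.58, 2.07 and 2.19 at ZT12. It stayed at 2.23, 2.22, 2.12 and 1.77 at ZT16 and was 0.22, 0.47, 0.28 and 0.96 at ZT20. The mice of ZT12 and ZT16 overlapped each other and none of the mice of the other 4 times. The fitted change was 11-fold with a peak at 13.1 h (amplitude 1.73 ± 0.14, limma adjusted p = 3.34e-07). Per1 (chr11:69095217-69109960, plus strand) read 1.71, 1.03 and 0.18 at ZT0 and 3.65, 3.51, 3.94 and 3.34 at ZT12, apart from each other, peaking at 11.9 h with an amplitude of 1.39 ± 0.13 (limma adjusted p = 3.88e-06). Per3 (chr4:151003652-151044665, minus strand), which holds the D-boxes printed above, spread widely at ZT0, with -2.09, 0.93 and -0.67, and little at ZT12, with 2.56, 2.41, 2.41 and 2.3. Its amplitude was 1.32 ± 0.17 (limma adjusted p = 0.00018), and 1.01 without the 3 libraries that stood apart. Cry2 peaked with the Per genes at 12.5 h (amplitude 0.37 ± 0.07, limma adjusted p = 0.00423). Cry1 (chr10:85131700-85185064, minus strand) peaked hours later, with 2.62, 2.46, 3.0 and 3.05 at ZT16 and 2.6, 2.64, 2.92 and 3.27 at ZT20 against 1.95, 1.89, 2.07 and 1.75 at ZT8, below every mouse of those times (peak 19.1 h, amplitude 0.46 ± 0.07, limma adjusted p = 0.00114). Bhlhe41, an E-box repressor, peaked at 10.6 h (amplitude 0.35 ± 0.08, limma adjusted p = 0.0231), a call lost without ZT0 mouse 2 (adjusted p = 0.0589). Its paralog Bhlhe40 was not called (amplitude 0.20 ± 0.11, limma adjusted p = 0.469).

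The D-box factors split into activators with peaks shortly before ZT12 and the repressor with a peak near ZT20. Dbp (chr7:45705088-45710203, plus strand) had the largest amplitude of the clock genes: it read -0.02, 1.51 and 0.68 at ZT0, 3.61, 3.61, 3.47 and 1.89 at ZT4 and 4.25, 4.79, 4.96 and 4.03 at ZT8. At ZT12 the mice read 4.2, 4.66, 4.44 and 4.77, at ZT16 3.32, 2.98, 2.68 and 3.21 and at ZT20 1.58, 1.75, 2.12 and 1.43. ZT8 and ZT12 overlapped each other and lay above all mice of the other times, a fitted 12.9-fold change with a peak at 10.2 h (amplitude 1.84 ± 0.15, limma adjusted p = 3.34e-07). Tef, the related activator, ran from 3.83, 4.67 and 3.93 at ZT0 to 5.29, 5.37, 5.21 and 5.32 at ZT12, with no overlap (peak 11 h, amplitude 0.50 ± 0.05, limma adjusted p = 2.28e-05). Nfil3 (chr13:52967209-52981073, minus strand), the repressor, was lowest at ZT8, with 2.32, 1.78, 1.65 and 2.0, and highest at ZT20, with 4.37, 4.18, 4.13 and 5.33. Its 4 ZT8 mice lay below every other mouse (peak 19.6 h, amplitude 1.1 ± 0.15, limma adjusted p = 0.000295). Of 8 further clock modifiers tested 1 was called, against 5.84% of all genes tested. It was Usp2, a ubiquitin protease that acts on clock proteins, with a peak at 12.4 h and an amplitude of 0.80 ± 0.08 (limma adjusted p = 8.87e-06).

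**Figure D2:**
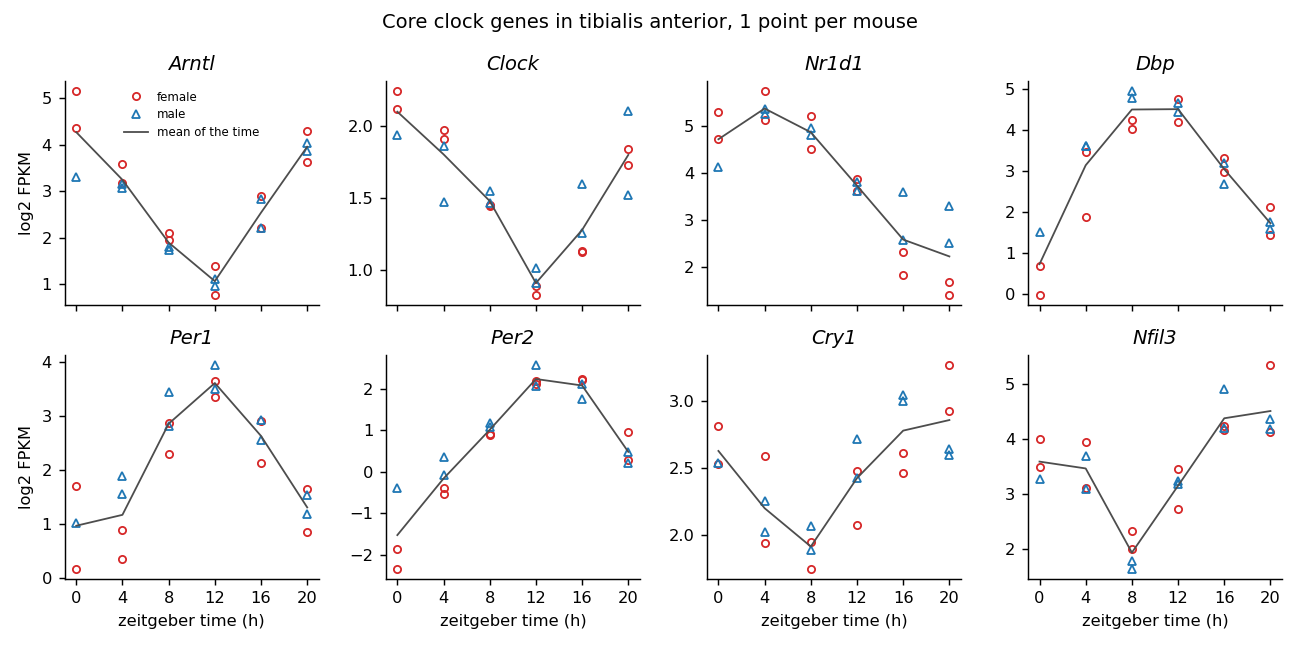
Log2 FPKM (y axis) of 8 core clock genes by zeitgeber time (x axis), 1 point per mouse (circles female, triangles male; the deposited values appear to be adjusted for sex) with a line through the time means. Arntl and Clock are lowest at ZT12, where Per1 and Per2 are highest, and Nfil3 and Cry1 are lowest at ZT8.

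Around ZT0 (fitted peaks from 22 to 2 h), 6 of the called genes with a mean of at least 2 FPKM had the largest amplitudes: Arntl, Atp1b4, Wsb1, Ppp1r27, Tspan9 and Dyrk2. Wsb1 (chr11:79239372-79254671, minus strand), a substrate receptor of a ubiquitin ligase, read 3.43, 2.87 and 3.28 at ZT0 and 3.36, 3.11, 3.19 and 3.34 at ZT20, against 1.47, 1.73, 1.86 and 1.93 at ZT12. The ZT12 mice did not overlap those of ZT0 or ZT20 (amplitude 0.81 ± 0.07, peak 22.1 h, adjusted p = 1.57e-06, limma). Dyrk2, a protein kinase, followed a like course, from 4.33, 3.56 and 3.69 at ZT0 to 2.44, 2.85, 2.42 and 2.06 at ZT12 (amplitude 0.69 ± 0.08, peak 22.7 h, adjusted p = 8.36e-05, limma). Tspan9, a tetraspanin of the cell membrane, read 5.08, 3.36 and 3.74 at ZT0, where mouse 1 stood far above the others, and 1.99, 2.46, 2.44 and 2.43 at ZT12 (amplitude 0.70 ± 0.13, peak 1.43 h, adjusted p = 0.00661, limma). Without ZT0 mouse 1 its amplitude was 0.54 and the adjusted p 0.000372. Atp1b4, a muscle member of the Na,K-ATPase beta family (amplitude 0.87 ± 0.17, peak 23.6 h, adjusted p = 0.00923, limma), and Ppp1r27, a regulatory subunit of protein phosphatase 1 (amplitude 0.78 ± 0.19, peak 22.9 h, adjusted p = 0.0348, limma), were not called without the 3 libraries that stood apart (adjusted p = 0.112 and 0.223). The call of Ppp1r27 was also lost in 8 of 23 fits that left out 1 mouse, with adjusted p up to 0.0833.

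Called genes of the matrix and of blood vessels peaked just after ZT0. Of 27 extracellular matrix genes tested 4 were called, against 5.84% of all genes, with fitted peaks of 2 to 2.73 h, and the list's median amplitude was 0.186. They were Fbn1 (fibrillin, of elastic microfibrils), Col4a1 and Col4a2 (the chains of basement membrane collagen) and Col15a1 (a basement membrane collagen). Fbn1 (chr2:125300594-125507993, minus strand) read 1.8, 1.53 and 1.54 at ZT0 and 0.50, -0.57, -0.21 and 0.40 at ZT12, with no overlap (amplitude 0.81 ± 0.10, peak 2.57 h, adjusted p = 9.85e-05, limma). Col4a1 (chr8:11198423-11312826, minus strand) and Col4a2 (chr8:11312805-11449287, plus strand), neighbours whose annotated ends overlap, followed a like course. Col4a1 read 5.34, 4.43 and 4.88 at ZT0 and 3.91, 3.45, 3.65 and 3.83 at ZT12 (amplitude 0.59 ± 0.08, peak 2.46 h, adjusted p = 0.000545, limma). Col4a2 read 4.95, 4.04 and 4.62 and 3.63, 3.26, 3.34 and 3.37 at these times, again with no overlap (amplitude 0.58 ± 0.08, peak 2.73 h, adjusted p = 0.000525, limma). The fibrillar collagens Col1a1 (amplitude 0.24, limma adjusted p = 0.607) and Col3a1 (amplitude 0.10, limma adjusted p = 0.874) were not called. Of the 13 endothelial and mural markers 2 were called, the tight-junction gene Cldn5 (amplitude 0.69 ± 0.13, peak 2.61 h, adjusted p = 0.00747, limma) and the VEGF receptor Kdr (amplitude 0.56 ± 0.14, peak 1.35 h, adjusted p = 0.0388, limma). The summed level of that whole list was 196 to 227 FPKM at ZT0, 160 to 264 at ZT4, 143 to 207 at ZT12 and 189 to 233 at ZT20, so that the times overlapped. The 8 fibroblast markers, which include matrix genes, summed to 98.6 to 227 FPKM at ZT0 and 85.8 to 347 at ZT12, and their part in the matrix result was not tested. In whole muscle, fewer cells of a type and less RNA per cell cannot be told apart. Kdr was not called without the 3 libraries that stood apart (adjusted p = 0.221), nor in 12 of 23 fits without 1 mouse (adjusted p up to 0.0938).

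Around ZT4 the leading genes were Nr1d1, Pdk4, Pfkfb3, Slc8a1, Cldn5 and Aplnr, and among them Pdk4 and Pfkfb3 are known to set which fuel a fibre burns. Pdk4 (chr6:5483351-5496309, minus strand) encodes a kinase that shuts off pyruvate dehydrogenase and so spares glucose. It read 9.4, 6.47 and 7.32 at ZT0, 8.3, 8.41, 7.36 and 7.35 at ZT4 and 8.36, 8.72, 7.89 and 9.88 at ZT8. The later times gave 6.57, 4.06, 5.66 and 6.24 at ZT12, 6.19, 4.75, 5.65 and 5.96 at ZT16 and 7.65, 5.71, 6.82 and 7.23 at ZT20. All mice of ZT4 and ZT8 were above all mice of ZT12 and ZT16, a fitted 6.91-fold change (amplitude 1.39 ± 0.30, peak 3.84 h, adjusted p = 0.0185, limma). Pfkfb3 (chr2:11471433-11554077, minus strand), which makes the sugar phosphate that activates glycolysis, read 4.74, 5.54, 5.78 and 4.5 at ZT4 and 5.54, 4.84, 5.65 and 4.11 at ZT8. At ZT12 it was 2.9, 3.06, 3.2 and 3.24 and at ZT16 3.58, 3.27, 3.19 and 3.01, with no overlap between the earlier and the later pair of times (amplitude 1.12 ± 0.17, peak 4.93 h, adjusted p = 0.000903, limma). Slc8a1, a sodium-calcium exchanger, was highest at ZT8, with 2.26, 2.11, 2.44 and 2.35, and lowest at ZT16, with 0.65, -0.42, 0.80 and 0.83 (amplitude 0.72 ± 0.12, peak 4.91 h, adjusted p = 0.00313, limma). Aplnr, the apelin receptor of endothelial cells, was highest at ZT4, with 1.7, 2.84, 2.54 and 3.12, where it overlapped ZT0 and ZT8 (amplitude 0.69 ± 0.13, peak 3.57 h, adjusted p = 0.00747, limma).

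Called genes for the use of fat peaked between ZT3 and ZT7. Of 13 genes of fasting and fat use 5 were called, with fitted peaks of 3.12 to 7 h and a median amplitude over the list of 0.218, and of 25 genes of fatty acid oxidation 4 were called, with peaks of 4.64 to 6.77 h and a median amplitude of 0.0958. Ucp3 (chr7:100472990-100486432, plus strand), the uncoupling protein of muscle mitochondria, read 6.05, 6.3, 5.39 and 4.92 at ZT4 and 6.04, 6.86, 6.06 and 7.08 at ZT8. It was 4.44, 4.37, 4.34 and 4.98 at ZT16 and 4.82, 4.51 and 4.04 at ZT0, below every ZT8 mouse (amplitude 0.84 ± 0.17, peak 6.77 h, adjusted p = 0.0108, limma). Cpt1a, which admits long-chain fatty acids to mitochondria, was 1.59, 1.76, 1.39 and 2.52 at ZT8 against 0.87, 0.85, 0.10 and 0.10 at ZT16, with no overlap (amplitude 0.64 ± 0.11, peak 6.72 h, adjusted p = 0.00317, limma). Cpt1b, its paralog for the same step, was below the filter and was not tested. Mlycd, which removes the inhibitor of that step, peaked at 5.94 h (amplitude 0.33 ± 0.08, limma adjusted p = 0.0335). Acads, a dehydrogenase of short-chain fatty acids, changed 1.3-fold with a peak at 4.64 h (limma adjusted p = 0.00754). Among the genes of fat storage and release, the droplet protein Plin5 (amplitude 0.59 ± 0.13, peak 5.53 h, adjusted p = 0.0276, limma), the hormone-sensitive lipase Lipe (amplitude 0.40 ± 0.08, peak 7 h, adjusted p = 0.00948, limma) and the fatty acid transporter Cd36 (amplitude 0.26 ± 0.07, peak 3.12 h, adjusted p = 0.0445, limma) peaked in the same hours. Without 1 mouse the calls of Mlycd, Plin5 and Cd36 were lost in 8, 4 and 15 of 23 fits (adjusted p up to 0.0718, 0.0603 and 0.103), and without the 3 libraries that stood apart 3 genes of each of these lists were called. Of 29 genes of glucose uptake and glycolysis 2 were called, Pfkfb3 and Pdp2, a phosphatase that reactivates pyruvate dehydrogenase (amplitude 0.60 ± 0.15, peak 6.99 h, adjusted p = 0.0394, limma), and the median amplitude of that list was 0.103. Over all genes tested 5.84% were called and the median amplitude was 0.11, so that the glucose list lay near the background. The median amplitude of the fatty acid oxidation list, 0.0958, was also no higher than that of all genes, although 4 of its 25 genes were called.

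Called genes of protein breakdown and autophagy peaked in the same part of the day. Of 20 tested 4 were called, with peaks of 4.43 to 7.5 h, and the list's median amplitude was 0.211, against 5.84% called and a median of 0.11 over all genes tested. Fbxo32, the muscle ubiquitin ligase atrogin-1, read 6.24, 6.41, 6.45 and 6.22 at ZT4 and 5.55, 4.69, 5.11 and 4.47 at ZT12, with no overlap (amplitude 0.51 ± 0.13, peak 4.43 h, adjusted p = 0.0493, limma). Ulk1, a kinase that starts autophagy (amplitude 0.31 ± 0.07, peak 7.12 h, adjusted p = 0.0289, limma), Atg14, a subunit of the lipid kinase of autophagy (amplitude 0.28 ± 0.06, peak 7.5 h, adjusted p = 0.0122, limma), and Zfand5, a zinc-finger protein that binds ubiquitin (amplitude 0.24 ± 0.06, peak 5.04 h, adjusted p = 0.0352, limma), were the others. The calls of Fbxo32, Zfand5 and Ulk1 were lost in 15, 12 and 4 of 23 fits that left out 1 mouse (adjusted p up to 0.102, 0.0804 and 0.0658), and that of Atg14 in none. Zfand5 was also not called without the 3 libraries that stood apart (adjusted p = 0.0608). Of 19 genes of insulin signalling 4 were called, and they fell on both sides of the day. Pik3ca, the catalytic subunit of PI3-kinase, and Insr, the insulin receptor, peaked at 0.937 and 2.91 h (amplitudes 0.43 ± 0.08 and 0.30 ± 0.06, limma adjusted p = 0.00496 and 0.0104). Foxo1, the factor that insulin restrains, and Arrdc3, an arrestin-domain protein, peaked at 13.9 and 16.3 h (amplitudes 0.37 ± 0.08 and 0.63 ± 0.12, limma adjusted p = 0.0116 and 0.00811).

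**Figure D3:**
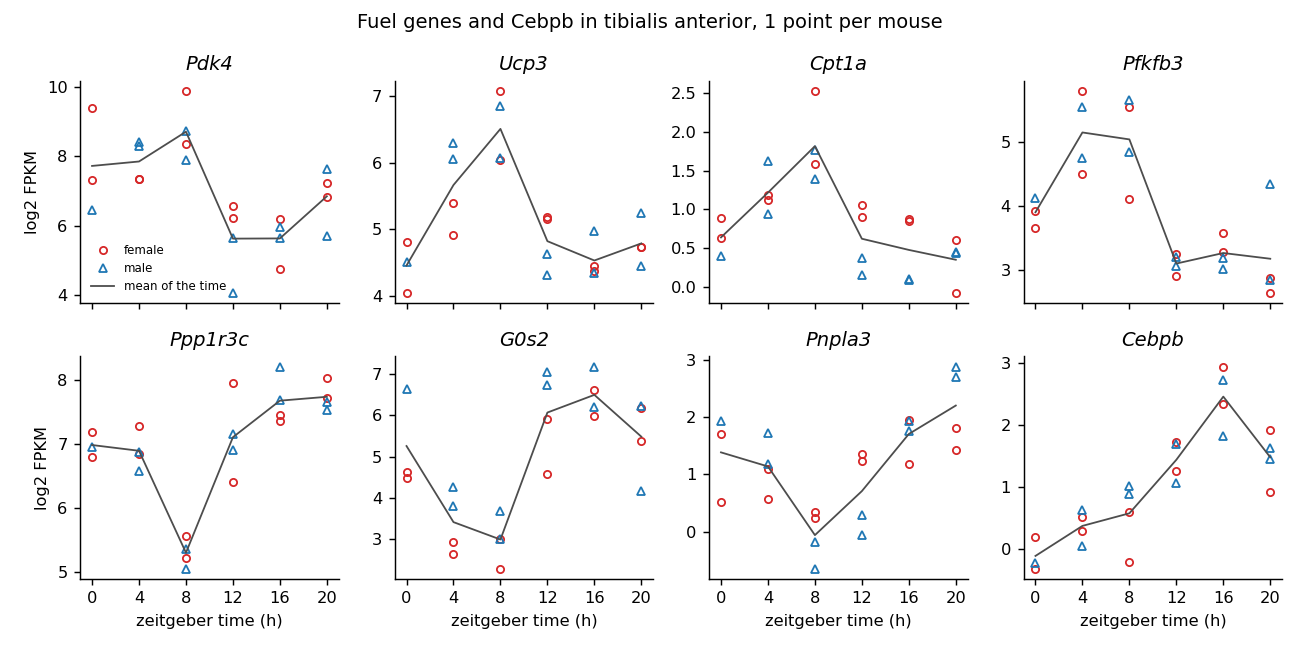
Log2 FPKM (y axis) by zeitgeber time (x axis) of 7 genes of fat, glucose and glycogen use and of the transcription factor gene Cebpb, 1 point per mouse with a line through the time means. Pdk4, Ucp3 and Cpt1a have their highest time mean at ZT8 and Pfkfb3 at ZT4, while Ppp1r3c, G0s2 and Pnpla3 have their lowest time mean at ZT8.

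Around ZT8 the leading genes were Chac1, Ucp3, Tmem86a, Pik3ip1, Slc25a22 and Cyp4f39. Chac1, which breaks down glutathione and is induced by amino acid stress, read 5.21, 5.67, 4.86 and 3.38 at ZT4 and 1.74, 2.82 and 1.16 at ZT0. At ZT20 mouse 21 stood apart from the other 3, with 5.2, 1.24, 0.48 and 0.85 (amplitude 1.46 ± 0.34, peak 8.11 h, adjusted p = 0.03, limma), and the call was lost in 4 of 23 fits without 1 mouse (adjusted p up to 0.0635) and without the 3 libraries that stood apart (adjusted p = 0.0804). Tmem86a, an enzyme of ether lipid breakdown, ran from -0.15, 1.16 and 0.32 at ZT0 to 1.75, 1.44, 1.71 and 2.49 at ZT12, with no overlap (amplitude 0.68 ± 0.12, peak 9.54 h, adjusted p = 0.0028, limma). Pik3ip1, an inhibitor of PI3-kinase, read 3.43, 4.25, 3.65 and 2.86 at ZT8 and 2.59, 2.75 and 2.04 at ZT0, again apart (amplitude 0.57 ± 0.10, peak 8.67 h, adjusted p = 0.00292, limma). Slc25a22, a glutamate carrier of mitochondria, was 1.53, 2.56, 2.11 and 2.18 at ZT8 and 0.77, 0.77, 0.67 and 0.44 at ZT16 (amplitude 0.56 ± 0.11, peak 6.57 h, adjusted p = 0.0114, limma). Cyp4f39, a fatty acid hydroxylase, lost its call in 13 of 23 fits that left out 1 mouse (amplitude 0.56 ± 0.14, peak 9.06 h, adjusted p = 0.0432, limma; adjusted p up to 0.0857 in those fits), and without the 3 libraries that stood apart its adjusted p was 0.102. Slc43a1, an amino acid transporter, also peaked here (amplitude 0.54 ± 0.08, peak 7.77 h, adjusted p = 0.000452, limma). It was 1 of 5 called among 17 genes of amino acids and their stress response, against 5.84% of all genes tested. The peaks of these 5 ran from 7.77 to 19.1 h, and 2 of the 17 were called without the 3 libraries that stood apart.

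Around ZT12 the leading genes were Dbp, Arrdc2, Per1, Per3, Gadd45g and Ddit4, and Arrdc2, Per1 and Ddit4 are also on the list of genes that glucocorticoids induce. Arrdc2 (chr8:70835129-70839720, minus strand), an arrestin-domain protein, read 1.0, 1.56 and 1.12 at ZT0 and 4.07, 3.43, 3.02 and 2.81 at ZT8. At ZT12 it was 5.78, 4.47, 5.05 and 6.3, above all mice of the other 5 times, and at ZT16 3.35, 2.76, 3.04 and 3.38 (amplitude 1.66 ± 0.26, peak 12 h, adjusted p = 0.00136, limma). Gadd45g, a stress response gene, was 5.64, 5.45, 5.64 and 7.03 at ZT12 and 3.89, 3.92, 2.08 and 2.18 at ZT4 (amplitude 1.12 ± 0.26, peak 13.5 h, adjusted p = 0.0285, limma). Ddit4, an inhibitor of the growth kinase mTORC1, spread widely at ZT12, with 3.67, 2.17, 3.86 and 5.16, and was 0.81, 1.15 and 0.77 at ZT0 (amplitude 1.03 ± 0.25, peak 13.1 h, adjusted p = 0.0379, limma). The calls of Gadd45g and Ddit4 were lost in 4 and 9 of 23 fits without 1 mouse (adjusted p up to 0.0604 and 0.0825), and that of Ddit4 without the 3 libraries that stood apart (adjusted p = 0.167).

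Of 18 genes of the glucocorticoid response 8 were called, with fitted peaks of 10.6 to 16 h and a median amplitude over the list of 0.599, against 5.84% called and a median of 0.11 over all genes tested. They were Arrdc2, Per1 (also a clock gene), Cebpb, Ddit4, Glul, Tsc22d3, Pik3r1 and Klf9. Tsc22d3, the anti-inflammatory factor GILZ, read 5.77, 5.54, 5.59 and 5.99 at ZT12 and 5.53, 5.61, 5.13 and 5.99 at ZT16, against 4.49, 4.75 and 4.12 at ZT0 and 4.63, 4.64, 4.71 and 4.08 at ZT8. Neither of the later times overlapped with the earlier ones named (amplitude 0.59 ± 0.10, peak 14.7 h, adjusted p = 0.00344, limma). Glul, which makes glutamine, peaked at 16 h with a 2.88-fold change, and Klf9, a zinc-finger factor, at 10.6 h with a 1.65-fold change (limma adjusted p = 0.0035 and 0.00323). Fkbp5, a widely used readout of glucocorticoids, peaked at 17.3 h and was not called (amplitude 0.72, limma adjusted p = 0.087), and neither was Nr3c1, which encodes the receptor itself (amplitude 0.14, limma adjusted p = 0.351). Without the 3 libraries that stood apart 7 of the 18 were called.

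Of 16 genes of denervation and myogenesis 3 were called, against 5.84% of all genes tested: Tcap and Mylk4 in the window of ZT12 and Dyrk2, a protein kinase, with a peak at 22.7 h. Tcap, which caps titin at the Z-disc, was 11.36, 11.45, 11.57 and 11.91 at ZT12 and 10.78, 10.91 and 10.27 at ZT0, with no overlap (amplitude 0.44 ± 0.08, peak 13.4 h, adjusted p = 0.00605, limma). Mylk4, a kinase of the myosin light chain family, was 8.54, 8.32, 8.1 and 8.18 at ZT12 and 6.65, 7.61 and 6.55 at ZT0, again apart (amplitude 0.64 ± 0.08, peak 13.7 h, adjusted p = 0.000107, limma). Coq10b, a coenzyme Q binding protein that cycles in many tissues, peaked at 10.1 h (amplitude 0.61 ± 0.11, limma adjusted p = 0.00484).

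Around ZT16 the leading genes included G0s2, Slc25a25, Cebpb, Cntfr and Mid1ip1. G0s2 (chr1:193272161-193273217, minus strand), an inhibitor of the main triglyceride lipase, read 5.98, 6.62, 7.18 and 6.2 at ZT16 and 3.0, 3.01, 3.68 and 2.29 at ZT8. The ZT4 mice, at 4.27, 3.81, 2.94 and 2.63, were also below every ZT16 mouse, and of the ZT0 mice, at 4.64, 6.64 and 4.49, 1 lay within the ZT16 range (amplitude 1.65 ± 0.26, peak 17.1 h, adjusted p = 0.0018, limma). Cebpb (chr2:167688915-167690418, plus strand), a transcription factor of metabolism and inflammation, rose from 0.20, -0.22 and -0.32 at ZT0 to 2.95, 2.35, 2.74 and 1.82 at ZT16, with no overlap (amplitude 1.09 ± 0.14, peak 15.5 h, adjusted p = 0.000195, limma). Slc25a25, a carrier of ATP into mitochondria, was 2.83, 3.74, 3.96 and 3.17 at ZT12 and 3.87, 3.46, 3.04 and 3.86 at ZT16, against 1.67, 1.61, 0.88 and 1.25 at ZT4, below all of these (amplitude 1.22 ± 0.23, peak 14 h, adjusted p = 0.00753, limma). Without the 3 libraries that stood apart its adjusted p was 0.0518. Cntfr, a receptor subunit for ciliary neurotrophic factor, was 3.45, 2.98, 1.79 and 3.84 at ZT16 and 1.11, 0.68 and 0.03 at ZT0 (amplitude 1.07 ± 0.20, peak 15.6 h, adjusted p = 0.0067, limma). Mid1ip1, which activates the first enzyme of fatty acid synthesis, was 4.14, 3.9, 4.37 and 4.59 at ZT16 and 2.69, 2.62, 2.11 and 2.12 at ZT4, with no overlap (amplitude 1.03 ± 0.13, peak 15.4 h, adjusted p = 0.000209, limma).

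Of 17 early-response genes tested 3 were called, against 5.84% of all genes, Klf2 and Jund in the window of ZT16 and Ier3 in that of ZT12. In the test of the 6 times with no shape assumed 7 of the 17 were called, against 5.07% of all genes, and 6 without ZT0 mouse 1. Klf2, a factor that responds to blood flow, was 4.4, 3.68, 4.2 and 3.07 at ZT16 and 1.49, 1.49, 1.51 and 2.07 at ZT4, with no overlap (amplitude 0.82 ± 0.21, peak 15.9 h, adjusted p = 0.0489, limma). Jund, of the AP-1 family, was 3.67, 2.98, 3.83 and 3.33 at ZT16 and 2.53, 2.22, 1.78 and 2.5 at ZT4, also apart (amplitude 0.44 ± 0.10, peak 17.3 h, adjusted p = 0.0314, limma). Ier3, an early-response gene of cell survival, peaked at 13.7 h (amplitude 0.50 ± 0.12, limma adjusted p = 0.0329). The calls of Klf2, Jund and Ier3 were lost in 17, 6 and 10 of 23 fits without 1 mouse (adjusted p up to 0.11, 0.0686 and 0.0661), and that of Klf2 also without the 3 libraries that stood apart (0.0659). With the slope on exon length as a covariate none of the 17 had a called 24 h rhythm. At ZT12 4 of the 17 were lower than at ZT0 (median of the list -0.828), against 5.94% of all genes tested. Without ZT0 mouse 1 none was (median -0.534).

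Around ZT20 the leading genes were Nfil3, Pnpla3, Ppp1r3c, Rgs2, Ypel2 and Abra, and they included genes of glycogen and lipid storage. Ppp1r3c (chr19:36731731-36736653, minus strand), which brings protein phosphatase 1 to glycogen and favours its synthesis, was 5.23, 5.36, 5.05 and 5.56 at ZT8 and 7.53, 7.65, 7.72 and 8.03 at ZT20. The 4 ZT8 mice lay below the mice of every other time, and ZT16, at 7.44, 7.36, 7.68 and 8.2, overlapped ZT20 (amplitude 0.96 ± 0.16, peak 19 h, adjusted p = 0.00292, limma). It was the called gene among 15 of glycogen metabolism, whose median amplitude was 0.105, against 5.84% called and a median of 0.11 over all genes tested. Pnpla3, a lipid droplet protein induced by feeding, was 2.88, 2.69, 1.81 and 1.42 at ZT20 and 0.23, -0.65, -0.18 and 0.34 at ZT8, with no overlap (amplitude 0.98 ± 0.17, peak 20.2 h, adjusted p = 0.00287, limma). It was the called gene among 16 of lipid synthesis, whose median amplitude was 0.18. The called counts of the glycogen and lipid synthesis lists thus lay near the share over all genes tested. Rgs2, which dampens G protein signals, was 2.19, 2.01, 2.4 and 1.65 at ZT20 and 0.37, -0.22, 0.62 and 0.46 at ZT12 (amplitude 0.80 ± 0.10, peak 21.8 h, adjusted p = 0.000114, limma). Ypel2, a gene of the yippee family, was 2.71, 2.38, 2.01 and 1.85 at ZT20 and 1.02, 0.90, 0.75 and 0.66 at ZT8, also apart (amplitude 0.78 ± 0.07, peak 21.6 h, adjusted p = 3.88e-06, limma). Abra, an actin-binding protein of muscle, was 8.77, 7.97 and 7.55 at ZT0 and 6.04, 6.55, 7.41 and 5.95 at ZT12, with no overlap, and spread widely at ZT20, with 6.92, 7.19, 8.05 and 8.68 (amplitude 0.74 ± 0.18, peak 21.6 h, adjusted p = 0.0331, limma), and its call was lost in 9 of 23 fits without 1 mouse (adjusted p up to 0.0683) and without the 3 libraries that stood apart (adjusted p = 0.096).

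**Figure D4:**
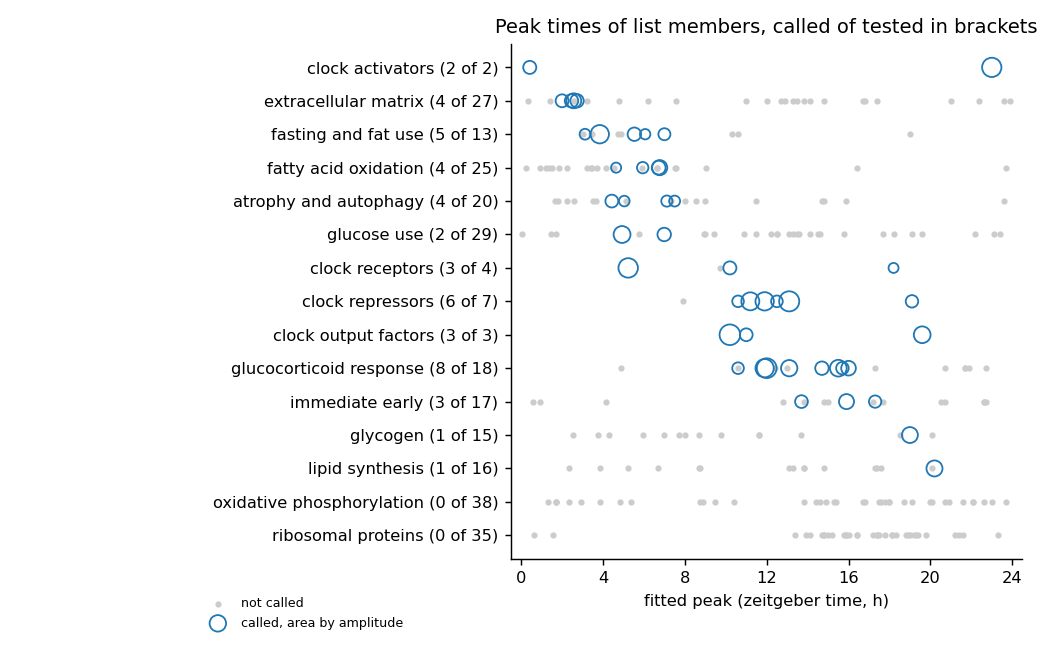
Fitted 24 h peak (x axis, zeitgeber time in h) of the tested members of 15 gene lists (y axis, with called of tested in brackets). Open circles are called genes, with area growing with amplitude, and grey points are genes not called. Called genes of fat use peak between 3 and 7 h, those of the glucocorticoid response between 10.6 and 16 h, and no gene of oxidative phosphorylation or of the ribosome was called.

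Single genes of other lists were called as well. In RNA splicing, 3 of 26 genes were called: Rbfox1, a splicing regulator of muscle and neurons (peak 8.07 h, 1.38-fold), Mbnl2, of the muscleblind family (peak 20.8 h, 1.32-fold), and Clk4, a kinase of splicing factors (peak 12.7 h, 1.28-fold; limma adjusted p = 0.0255, 0.0165 and 0.0224). Of 10 cholesterol genes 2 were called, the exporter Abca1 (peak 11.8 h, 1.87-fold) and the master regulator Srebf2 (peak 23.7 h, 1.38-fold; limma adjusted p = 0.0103 and 0.0308). Over all genes tested 5.84% were called. The muscle creatine kinase Ckm, 1 of the 10 fibre markers, changed 1.31-fold (peak 10.3 h, limma adjusted p = 0.0327). The calls of Srebf2 and Ckm were lost in 6 and 9 of 23 fits without 1 mouse (adjusted p up to 0.0693 and 0.0768). That of Rbfox1 was lost without ZT8 mouse 11 or ZT20 mouse 23 (up to 0.0587), and that of Clk4 without ZT0 mouse 4 (0.0545). Without the 3 libraries that stood apart none of the 10 cholesterol genes was called (adjusted p = 0.105 for Abca1 and 0.181 for Srebf2, limma) and 1 of the 26 splicing genes was (0.0506 for Rbfox1 and 0.135 for Clk4), and Ckm was not (0.0998). Of 13 genes that cycle in many tissues 9 were called, with peaks of 2.73 to 21.6 h, and the list's median amplitude was 0.312.

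Large groups of genes that carry out the basic work of the fibre had no called rhythm. None was called among 38 genes of oxidative phosphorylation, 16 of the citric acid cycle, 13 of the mitochondrial genome, 35 ribosomal protein genes, 30 proteasome genes and 13 genes of the fast and 8 of the slow fibre programme, by limma at an adjusted p under 0.05. At an unadjusted p under 0.05 these lists held 1, 1, 0, 1, 0, 3 and 0 genes. Their median amplitudes were 0.0607, 0.0577, 0.0934, 0.0834, 0.0606, 0.144 and 0.145, against 0.11 for all genes tested. With the slope on exon length as a covariate 744 of all 9862 genes tested were called. In that setting 8 of the 38 genes of oxidative phosphorylation were called, so that for this list the count turned on the setting. So were 2 of the 35 ribosomal protein genes, 1 of the 16 citric acid cycle genes and 1 of the 13 fast-fibre genes, counts near the share over all genes. Markers of fibroblasts, tendon, immune cells, adipocytes, nerve and red blood cells were not called either, in 7, 5, 8, 1, 2 and 5 genes tested, of which 0, 1, 0, 0, 0 and 2 had an unadjusted p under 0.05 in limma.

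A test of the 6 times with no shape assumed called 500 genes, or 5.07% (1211 without ZT0 mouse 2), of which 319 were among the 576 with a 24 h rhythm. Of the other 181 genes, 125 had an unadjusted p under 0.05 for a 12 h wave beside the 24 h one. Over all 9862 genes tested 1074 did. The 181 had been chosen for passing the test of the times without a 24 h call, so their high share is fixed in part by the choice. Irs1, the main docking protein of the insulin receptor, was low at 1 time. It read 2.69, 2.05, 2.31 and 2.34 at ZT8, 1.19, 1.87, 1.45 and 0.30 at ZT12 and 2.95, 2.78, 2.21 and 3.23 at ZT16. The ZT12 mice lay below the mice of all other times (limma F test of the times, adjusted p = 0.00459). Pank1, the first enzyme of coenzyme A synthesis, was 2.71, 2.66, 2.88 and 3.73 at ZT8 and 2.14, 1.42, 1.71 and 1.57 at ZT12 (adjusted p = 0.00339, limma). Sik1, a kinase induced by cAMP, was 2.66, 2.16, 3.0 and 2.49 at ZT16 and 0.66, 1.29, 0.90 and 0.95 at ZT4 (adjusted p = 0.0048, limma), and ZT0 mouse 1, at 2.36, was the one mouse of another time within the ZT16 range. Grap, an adaptor of growth factor signals, was lowest at ZT16, with 0.26, 0.85, 0.39 and 0.55, and highest at ZT12, with 1.65, 1.64, 1.48 and 2.02 (adjusted p = 0.00459, limma). Rilpl1, a regulator of lysosomes and cilia, was lower at ZT0, with 5.74, 6.14 and 5.9, than in every mouse of the other times (adjusted p = 0.00177, limma), a call lost without the 3 libraries that stood apart (adjusted p = 0.175).

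A 12 h wave was called in 4 genes (0.0406%), Nle1, Vgll4, Ccdc50 and Fam160b1, all at a limma adjusted p of 0.0317. Ccdc50, a binding partner of ubiquitin, had its peaks at ZT4, with 4.25, 4.05, 4.42 and 4.56, and ZT16, with 4.04, 3.94, 3.48 and 3.99, and was lower at ZT12, with 3.33, 3.24, 3.43 and 3.22, and ZT20, with 3.72, 3.64, 3.53 and 3.83. The ZT4 and ZT16 mice lay above all ZT12 mice, and ZT16 overlapped ZT20. Vgll4, a repressor of the Hippo pathway's TEAD factors, was 2.08, 2.32, 2.62 and 2.35 at ZT4 and 2.6, 2.78, 2.84 and 2.26 at ZT16, against 1.83, 1.9, 1.8 and 1.91 at ZT8 and 1.87, 1.91, 1.98 and 1.69 at ZT12. These calls were fragile: they were lost in 13, 11, 9 and 14 of 23 fits without 1 mouse, in the order named above, with adjusted p up to 0.113.

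Times 12 h apart were compared directly, and the contrast of ZT12 with ZT0 differed from the other pairs in how many genes it called. At ZT12 377 genes were higher (3.82%) and 586 lower (5.94%) than at ZT0. This count turned on single mice: it was 161 in all without mouse 1 and 1723 without mouse 2. Without ZT12 mouse 13, 14 or 16 it was 548, 636 and 301. It was 12 without the 3 libraries that stood apart, when 1 ZT0 mouse was left and was assumed to vary like the others. Among called genes with a mean log2 FPKM of at least 1 in these mice and a symbol other than a Gm or Rik name, the limit kept for each pair of times, the 3 highest at ZT12 by difference were Arrdc2 (4.13 ± 0.55 in log2, adjusted p = 0.000243, limma), Dbp (3.73 ± 0.34, 4.27e-06) and Per3 (2.97 ± 0.41, 0.000269). Per2, whose mean lay below that limit, differed by 3.72 ± 0.30 (adjusted p = 1.06e-06, limma). Each of the first 3 kept its call without ZT0 mouse 1. Without the 3 libraries that stood apart Dbp kept it (adjusted p = 0.0223), and Arrdc2 and Per3 did not (0.175 and 0.142). The 3 lowest within that limit were genes known from injured or stressed muscle: Atf3, a stress transcription factor, Xirp1, an actin-binding protein of muscle attachment sites, and Tnfrsf12a, the receptor for TWEAK. Atf3 read 8.21, 2.73 and 5.07 at ZT0 and -0.14, -0.04, 2.02 and -0.03 at ZT12 (-4.76 ± 1.26, adjusted p = 0.0268, limma). Xirp1 read 9.72, 6.08 and 7.65 and 4.08, 4.07, 5.17 and 3.19 (-3.6 ± 0.83, 0.0152), and Tnfrsf12a 8.55, 6.27 and 7.09 and 3.66, 3.74, 4.77 and 3.22 (-3.36 ± 0.97, 0.0381). In each of the 3, ZT0 mouse 1 was the highest of the 23 mice, and none was called without it (adjusted p = 0.205, 0.13 and 0.218). Without ZT12 mouse 16 none was called either, nor Atf3 and Tnfrsf12a without ZT12 mouse 13 or 14, nor Tnfrsf12a without ZT0 mouse 4.

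The counts of the stress lists also changed without this mouse. Over all 9862 genes tested 5.94% were lower and 3.82% higher at ZT12 than at ZT0. Without ZT0 mouse 1 these calls fell to 75 genes lower and 86 higher, so the list counts fell along with those of all genes. Of 18 heat-shock and chaperone genes 6 were lower at ZT12 than at ZT0, with a median difference of -0.70 against 0.00 for all genes, and none was called without ZT0 mouse 1 (median -0.335). Of 18 genes of the endoplasmic reticulum and secretion 7 were lower (median -0.54), and none without that mouse (median -0.242). The glucocorticoid response list held 10 genes of 18 that were higher at ZT12, with a median of 0.84, and 6 without that mouse, with a median of 0.851. Without the 3 libraries that stood apart, when 1 ZT0 mouse was left, the median of that list was 0.643. The part of the high heat-shock sum of ZT0 mouse 1 in the other differences was not tested.

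ZT16 and ZT4 differed in 79 genes, 43 higher (0.436%) and 36 lower (0.365%) at ZT16, and 70 of the 79 had a called 24 h rhythm. Within the same limit on the mean the 3 highest were G0s2 (3.08 ± 0.49, adjusted p = 0.00638, limma), Slc25a25 (2.2 ± 0.46, 0.027) and Klf2 (2.2 ± 0.37, 0.00791), while Per2, below the limit, differed by 2.25 ± 0.28 (adjusted p = 0.000902, limma). The 3 lowest were Nr1d1 (-2.79 ± 0.35, 0.000902), Pfkfb3 (-1.88 ± 0.35, 0.0133) and Aplnr (-1.36 ± 0.31, 0.0463), the last of which lost its call in 17 of 23 fits without 1 mouse (adjusted p up to 0.147). The call of Slc25a25 was lost without any 1 of the ZT4 mice or ZT16 mice 17 and 18 (adjusted p up to 0.12), and that of Pfkfb3 without ZT4 mouse 6 or 7 (up to 0.0551). Without ZT16 mouse 17 the count was 24, and without ZT16 mouse 18 or any 1 of the ZT4 mice it was 38 to 44. Of 17 immediate-early genes 5 were higher at ZT16 (median of the list 0.905 against -0.014 for all genes).

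ZT20 and ZT8 differed in 77 genes, 23 higher (0.233%) and 54 lower (0.548%) at ZT20, and 62 of them had a called 24 h rhythm. Nfil3 (2.57 ± 0.26, adjusted p = 3.01e-05, limma), G0s2 (2.49 ± 0.49, 0.0172) and Ppp1r3c (2.43 ± 0.25, 3.01e-05) were the highest within that limit. Dbp (-2.79 ± 0.32, 7.69e-05), Nr1d1 (-2.65 ± 0.35, 0.000442) and Pfkfb3 (-1.86 ± 0.35, 0.0134) were the lowest. The call of G0s2 was lost without ZT8 mouse 10 or 12 or ZT20 mouse 23 or 24 (adjusted p up to 0.0798), and that of Pfkfb3 without ZT8 mouse 9 or 11 or ZT20 mouse 23 (up to 0.0615). The count was 41 to 49 without any 1 of ZT8 mice 9, 10 and 11 and ZT20 mice 23 and 24. Of 25 genes of fatty acid oxidation 4 were lower at ZT20 and none higher.

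Genes called at both 10 and 26 weeks peaked at like hours. In the 22 older mice 103 genes (1.04%) had a called rhythm, 78 of them also called at 10 weeks, which is 75.7% of the 103 and 13.5% of the 576. Over these 78 genes the fitted peaks of the ages lay a median of 0.933 h apart, and 70 lay under 2 h apart. Of the 576 genes 536 had the larger amplitude at 10 weeks, where they had been chosen for passing the test, so that this direction is fixed in part by the choice. A test of the difference in rhythm between the ages called 0 of 9862 genes with limma (375 at an unadjusted p under 0.05). Arntl had an amplitude of 1.57 ± 0.11 at 10 weeks and 1.08 ± 0.12 at 26 weeks, with peaks at 23 and 0.228 h, and its unadjusted p of 0.00207 for the difference was among the 6 smallest (limma adjusted p = 0.999). Dbp had 1.84 ± 0.15 and 1.41 ± 0.12, with peaks at 10.2 and 10.1 h, and Per1 had 1.39 ± 0.13 and 1.47 ± 0.16, with peaks at 11.9 and 11.9 h. Among output genes, Pdk4 had 1.39 ± 0.30 and 0.44 ± 0.37, Pfkfb3 1.12 ± 0.17 and 1.28 ± 0.18, and Pnpla3 0.98 ± 0.17 and 1.12 ± 0.12. The other 5 genes of smallest p, Hnrnph3, Acads, Ctf1, Car11 and Pard6a, had unadjusted p of 0.000815 to 0.00224. Ctf1, which encodes the cytokine cardiotrophin, had an amplitude of 0.40 ± 0.07 at 10 weeks and 0.06 ± 0.06 at 26 weeks.

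**Figure D5:**
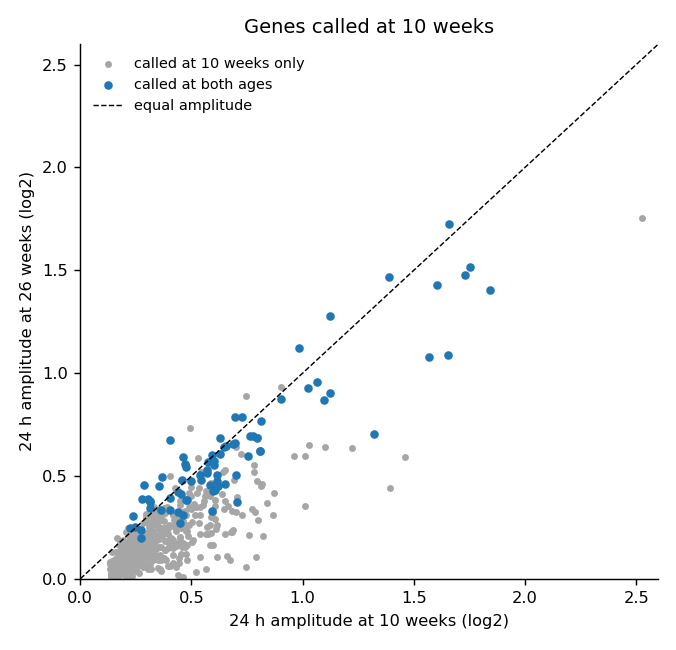
24 h amplitude at 26 weeks (y axis, log2) against that at 10 weeks (x axis, log2) for the 576 genes called at 10 weeks, 1 point per gene, with the line of equal amplitude. Most points lie under the line, 536 of 576, and the 78 genes called at both ages are in blue.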

How the data were processed

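Tibialis anterior RNA of 23 mice was analysed, with 22 mice of 26 weeks for 1 comparison. Libraries were paired-end, per the labels' protocols. The authors deposited log2 FPKM per gene. Per the submitters' processing notes HISAT2 2.1.0 and featureCounts 1.6.2 were used on GRCm38, beside limma 3.44.1, edgeR 3.30.0, Trim Galore 0.5.0 and FastQC 0.11.8, with no role given. The labels do not say how multiply mapping reads and strand were treated. Over the 259 libraries outside the groups labelled Br-RE and RE-RE, each gene's female and male means were equal within 1e-05, so an additive adjustment for sex appears to have been made and the sexes were not compared. The low values fit a constant of 0.01 FPKM under the log: with it, and a shift per gene and sex taken from libraries at 0, 92.2% to 95.0% of the low values were whole reads within 0.1, from which depth was estimated as 17.5 to 47.5 M reads a library.

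Genes with a mean log2 FPKM of at least 0 over all 352 libraries were kept, 9862 of 14413. The log2 values were fitted with limma 3.58.1 (trend and robust) in R 4.3.3, with sex as a term: the cosine and sine of 24 h, the 6 times, a 12 h wave, and times 12 h apart. A call is a Benjamini-Hochberg adjusted p under 0.05. The rhythms of the ages were compared by the interaction of age with the 24 h terms. Each library is a separate mouse. The model was tested on simulated data with noise drawn separately for each gene and library. Differences shared by many genes of a library were thus not part of that test. Alternatives were other filters and pseudocounts, median centring, a length covariate, ranks, more groups in the fit, and each mouse left out. Leaving out the 3 libraries that stood apart was chosen after seeing the data.

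Members and gene lists were chosen with earlier results of these data known. Named were all core clock genes, in each window the 6 called genes of largest amplitude with a mean log2 FPKM of at least 1, called members of the lists, the 3 highest and 3 lowest called genes of each contrast with that mean, and the 6 of smallest p in the other tests. A few genes that meet this rule are not reported here. Gene positions are from GENCODE M21 on GRCm38, and promoters from RefSeq (GRCm38.p6).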

Additional observations from a re-analysis of the deposited data

Results flagged for a closer look

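In 290 sets of 4 mice of 1 time (46 genes and the marker lists), 22 held a mouse whose gap to its nearest neighbour passed Dixon's 95% critical value, while chance gives about 1 in 20 sets. ZT4 mouse 8 was the lowest of its time for Dbp (log2 FPKM 1.885, the others at least 3.47), Tef (4.523), Bhlhe40 (4.315) and Tmem86a (0.6452). ZT20 mouse 21 was the highest for Chac1 (5.195, the others at most 1.235), Pfkfb3 (4.338) and Dyrk2 (3.906). At ZT16, mouse 20 was the highest for Nfil3 (4.895) and Ucp3 (4.976), and mouse 18 the lowest for Slc8a1 (-0.4235) and Pik3ip1 (2.441). At ZT12, mouse 16, which also stood apart on the first principal component, was the lowest for Rora (2.436) and the highest for Gadd45g (7.032). Also at ZT12, mouse 13 was the lowest for Tspan9 (1.985) and mouse 15 the highest for Atp1b4 (2.091).

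Marker lists gave the rest, as the mean log2 FPKM of their genes. ZT8 mouse 12 was the lowest of its time for muscle fibre markers (11.2, the others 11.4) and the highest for endothelial and mural markers (3.46). The list means had been rounded to 3 digits before the test. Whether the muscle fibre gap passes without that rounding was not tested. ZT4 mouse 5 was the lowest for endothelial and mural (2.76) and for nerve and Schwann cell markers (-0.858). ZT16 mouse 20 was the lowest for endothelial and mural markers (2.73), ZT8 mouse 11 for satellite cell markers (0.539), and ZT12 mouse 14 the highest for the 2 neutrophil markers measured (-4.65). These summed to 0.114 FPKM in mouse 14 and to 0.00543 to 0.00596 FPKM, near 0, in the other ZT12 mice. At ZT16 the sum reached 1.39 FPKM, so this flag rests on very low values.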

How the results depend on the processing

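The count of genes with a 24 h rhythm was 414 to 744 in 9 alternatives and 36 on normal scores of ranks. The ranks also gave 0 genes for any difference among the times, 0 for the 12 h wave, 283 for ZT12 against ZT0, and 0 for both ZT16 against ZT4 and ZT20 against ZT8. With the length slope as a covariate these were 797 for any difference, 12 for the 12 h wave and 148 for ZT16 against ZT4. All 15 groups in 1 fit gave 988 for any difference and 131 for the 12 h wave. No filter gave 0 for the 12 h wave. Without the 3 libraries that stood apart, any difference held 219 genes, the 12 h wave 1 and ZT12 against ZT0 12. The cause was not tested in any of these. Leaving out 1 mouse at a time gave 419 to 596 genes for the 24 h rhythm, 340 to 1211 for any difference, 0 to 10 for the 12 h wave, 161 to 1723 for ZT12 against ZT0, 24 to 108 for ZT16 against ZT4 and 41 to 104 for ZT20 against ZT8. The difference in rhythm between the ages gave 0 genes in every alternative run. Of 114 named calls 75 kept their side of the threshold without any 1 mouse, and none of the named results changed direction in any alternative run. Of these calls 89 were lost on ranks, 29 without the 3 libraries, 21 with all 15 groups, 12 without the filter, 12 without the sex term, 10 with the length covariate, and 4 or fewer in the others.

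No paired analysis was possible because the times share no replicate numbers: the mice are numbered 1 to 24 across the times. Each time held 3 or 4 mice, with 17.5 to 47.5 M reads a library, and which of these limits the precision more was not compared. Each mouse gave 1 time, so these are differences between mice. The 6 times cover a single day, and a 12 h wave rests on few times per cycle.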
